A study of Mus musculus with 2 samples.

Results

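The cadherins and protocadherins analysed here were 32 genes, 22 named Cdh and 10 named Pcdh. They were chosen by symbol, and a peak of the deposited Isl1 ChIP-Seq list was counted for one of them when the gene symbol of its line was identical. In all, 484 of 48295 peaks (1.00%) carried such a symbol. The list came from cardiogenic mesoderm and the heart region of C57BL/6 embryos staged E8.25-E9, pooled from 60 to 80 embryos. Chromatin was precipitated with an antibody against Isl1, a LIM-homeodomain transcription factor of cardiac progenitor cells. There is 1 list, deposited for 1 ChIP sample, so no replicate check could be made. Common areas of replicates were part of the study's peak processing, but it is not said whether this list was made in that way. The matching input (sheared chromatin of the same stage and strain, no antibody) was not analysed here, and the read depth is unknown. Whole tissue was pooled, so the cell type in which a site was bound is not given, and a peak list holds no expression values with which the tissue could be checked against its markers.

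Classical cadherins are calcium-dependent adhesion molecules. They hold neighbouring cells together through their extracellular repeats and connect to the actin cytoskeleton through catenins. Type I cadherins include E-cadherin (Cdh1) of epithelia and N-cadherin (Cdh2), which joins cardiomyocytes at their adherens junctions and is also abundant in neural tissue. VE-cadherin (Cdh5), a type II cadherin, holds endothelial cells together. Most other type II cadherins and the protocadherins are best known from the nervous system, where they are expressed in different sets of neurons. Many of these genes are long and lie in gene deserts, wide stretches with few protein-coding genes.

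The sequence under the peaks shows what most of these sites had in common. Each line below gives 241 bases around a peak midpoint from the forward strand of the reference build NCBIM37 (mm9), 5′ to 3′, with the longest uninterrupted run of purines (A and G) or pyrimidines (C and T) in capitals. The first 4 are the peaks closest to the transcription start site (TSS) of Cdh5 and of the genes with the most peaks, Pcdh9, Cdh11 and Cdh6. The next 3 are the member peaks within 1 kb of a TSS, shown because they are the only promoter-proximal ones. The last is the peak closest to its TSS that held no run of 25 bases anywhere, shown for contrast with all letters in lower case. The last 4 were chosen after their values were seen.
Cdh5 (chr8:106502320-106502560, + strand): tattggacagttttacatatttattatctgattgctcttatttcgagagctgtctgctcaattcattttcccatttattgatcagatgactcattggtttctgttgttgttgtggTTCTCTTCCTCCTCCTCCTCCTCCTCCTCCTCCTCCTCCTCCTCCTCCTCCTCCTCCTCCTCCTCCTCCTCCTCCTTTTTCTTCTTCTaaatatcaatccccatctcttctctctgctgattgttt
Pcdh9 (chr14:94304802-94305042, + strand): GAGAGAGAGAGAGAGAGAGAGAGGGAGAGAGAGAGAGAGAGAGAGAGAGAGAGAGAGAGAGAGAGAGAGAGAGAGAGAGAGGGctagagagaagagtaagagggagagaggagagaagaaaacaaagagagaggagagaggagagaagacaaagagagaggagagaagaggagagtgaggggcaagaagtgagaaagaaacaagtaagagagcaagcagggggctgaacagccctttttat
Cdh11 (chr8:105251826-105252066, + strand): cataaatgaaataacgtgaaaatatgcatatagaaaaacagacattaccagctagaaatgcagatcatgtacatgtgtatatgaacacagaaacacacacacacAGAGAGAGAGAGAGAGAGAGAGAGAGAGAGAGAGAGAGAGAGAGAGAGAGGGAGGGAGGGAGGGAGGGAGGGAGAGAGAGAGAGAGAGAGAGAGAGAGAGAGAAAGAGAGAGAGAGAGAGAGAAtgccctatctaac
Cdh6 (chr15:13121760-13122000, + strand): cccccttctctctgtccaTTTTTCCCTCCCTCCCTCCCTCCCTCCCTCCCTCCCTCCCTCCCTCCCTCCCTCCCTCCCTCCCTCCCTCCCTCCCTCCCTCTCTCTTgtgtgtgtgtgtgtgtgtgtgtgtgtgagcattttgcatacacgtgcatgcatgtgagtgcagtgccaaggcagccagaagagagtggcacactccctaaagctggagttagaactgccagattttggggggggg
Cdh19 (chr1:112874067-112874307, + strand): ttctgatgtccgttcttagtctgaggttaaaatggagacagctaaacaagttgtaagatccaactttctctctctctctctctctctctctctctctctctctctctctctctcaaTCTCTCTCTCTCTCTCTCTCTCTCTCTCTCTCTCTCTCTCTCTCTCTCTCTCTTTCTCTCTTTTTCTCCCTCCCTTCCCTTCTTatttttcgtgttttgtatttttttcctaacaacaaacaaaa
Pcdh17 (chr14:84842689-84842929, + strand): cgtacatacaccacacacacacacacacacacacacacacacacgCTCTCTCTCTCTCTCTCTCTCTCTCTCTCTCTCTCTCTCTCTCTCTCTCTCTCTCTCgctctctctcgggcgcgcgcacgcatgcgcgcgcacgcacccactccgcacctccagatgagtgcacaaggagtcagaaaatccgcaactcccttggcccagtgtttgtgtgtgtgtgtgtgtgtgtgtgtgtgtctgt
Pcdh19 (chrX:130224175-130224415, + strand): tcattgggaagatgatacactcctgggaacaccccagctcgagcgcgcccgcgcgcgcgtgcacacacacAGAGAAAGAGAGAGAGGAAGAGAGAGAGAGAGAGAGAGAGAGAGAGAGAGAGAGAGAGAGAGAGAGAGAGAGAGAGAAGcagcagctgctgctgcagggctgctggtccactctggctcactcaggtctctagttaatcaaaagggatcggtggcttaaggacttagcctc
Pcdh9, peak without a run (chr14:94330732-94330972, + strand): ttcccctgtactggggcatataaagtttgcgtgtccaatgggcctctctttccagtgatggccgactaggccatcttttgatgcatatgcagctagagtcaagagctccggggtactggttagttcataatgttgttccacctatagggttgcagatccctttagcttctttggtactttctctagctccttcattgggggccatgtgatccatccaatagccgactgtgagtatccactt

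The peak of Pcdh9 with a run lay 15.02 kb upstream of the TSS, that of Cdh6 18.45 kb upstream and that of Cdh11 57.1 kb into the gene, in an intron, while the Pcdh9 peak without a run was 40.95 kb upstream. Runs stood in 7 of these 8 windows. They were a CT or GA dinucleotide repeat at Pcdh9 and Pcdh17, repeated TCC at Cdh5 and repeated CCCT at Cdh6. At Cdh11, Cdh19 and Pcdh19 a CT or GA repeat made up only part of the run, beside other units. A run, counted here when 25 or more purines or 25 or more pyrimidines followed each other within 100 bp of the midpoint, was present in 466 of 484 member peaks (96.3%; Wilson interval at 95%, 94.2 to 97.6%). The share over all peaks of the list was 94.1%. Equal windows centred 1 kb before and 1 kb after each member peak had a run in 38 of 968 cases (3.93%). At least 4 units of CT or GA (CTCTCTCT, TCTCTCTC, GAGAGAGA or AGAGAGAG) stood in 59.7% of member peaks, in 56.1% of all peaks, but in only 3.51% of the flanking windows. The 4 bases TAAT, the core of the sequence that homeodomains recognise, or their complement ATTA were present in 39.0% of member peaks (interval 34.8 to 43.5%) and in 35.3% of all peaks. The flanking windows held them more often, in 84.1% of windows beside member peaks and 73.4% beside all peaks. A run takes up much of a window and contains no TAAT, so these shares come from windows with unequal room for the motif. The purines lay on the strand of the gene in 222 of 466 peaks with a run (47.6%, interval 43.1 to 52.2%). The part of the repeats in the calling of these peaks was not tested, since no read counts were given.

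Of the 32 genes, 29 (90.6%) had at least 1 peak, against 49% of the 22225 protein-coding genes of the annotation. Pcdh9 had 72 peaks, Cdh11 46, Cdh6 42, Cdh9 and Cdh20 30 each, Pcdh17 25, Pcdh15 24 and Pcdh19 22. Cdh10 and Cdh18 followed with 20 each, Pcdh18 with 19, Cdh12 with 18, Cdh7 with 17, Cdh13 with 16, Pcdh20 with 15, Cdh2 and Cdh19 with 13 each and Pcdh7 with 10. Fewer peaks were named for Cdh26 (6), Cdh4 (5), Cdh5 and Cdh17 (4 each), Cdh22 and Cdh23 (3 each) and Cdh8 and Pcdh1 (2 each). Cdh3, Cdh15 and Cdh16 had 1 peak each, and Cdh1, Pcdh8 and Pcdh10 had none. Thus 18 of the 32 genes had at least 10 peaks, a number reached by 801 protein-coding genes (3.60%) in all. The 6 genes with the most peaks held 245 of the 484 (50.6%). Only 2 protein-coding genes, Pcdh9 being one, had 72 peaks or more.

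**Figure D1:**
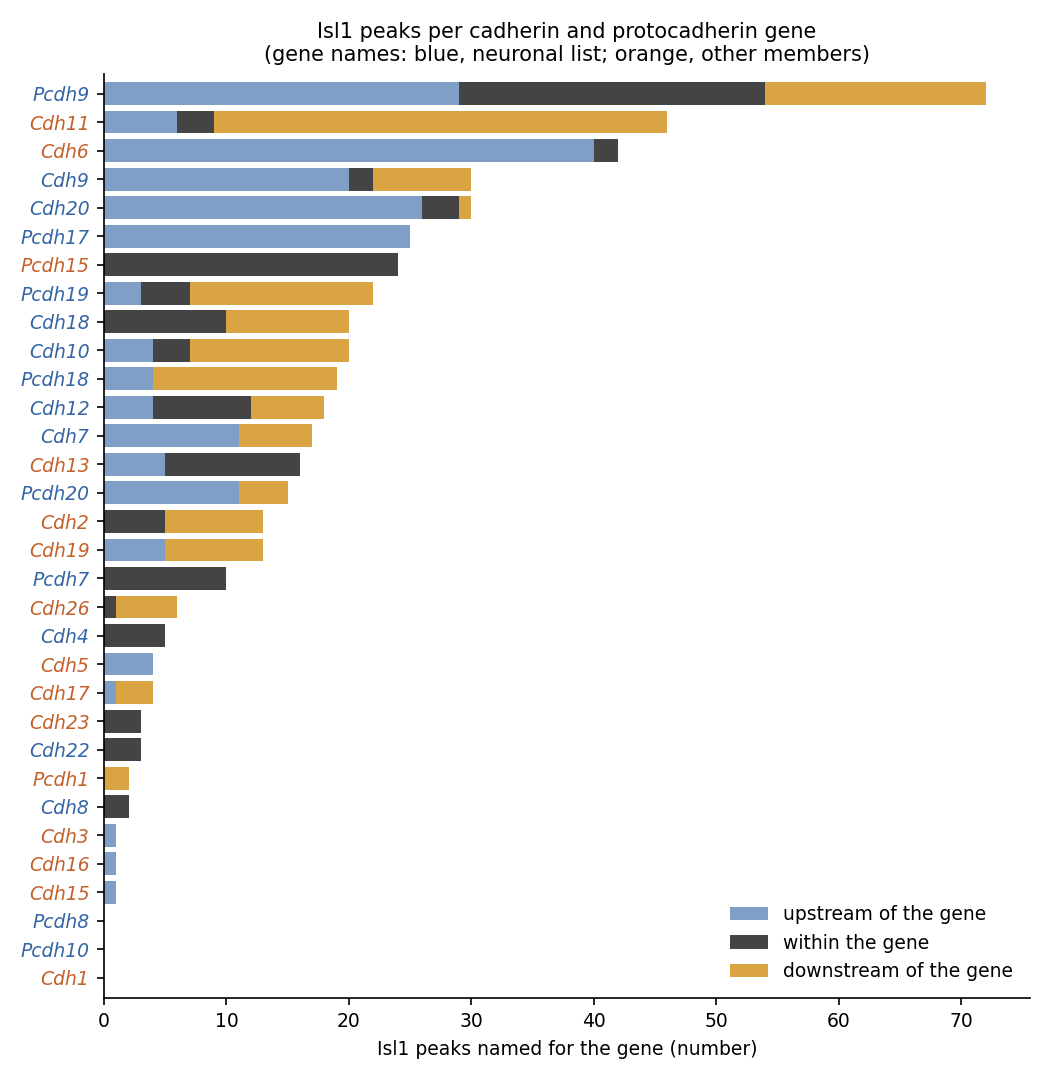
Number of Isl1 peaks named for each of the 32 genes (x axis), split by whether the peak lay upstream of, within or downstream of the annotated gene, with gene names in blue for the neuronal list and orange for the other members. Counts ran from 72 for Pcdh9 to 0 for Cdh1, Pcdh8 and Pcdh10, and most bars consist of flanking peaks.

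Most peaks of these genes were far from any promoter. Upstream of the annotated gene lay 201 peaks (41.5%), downstream of it 159 (32.9%) and within it 124 (25.6%). None of the 124 had its midpoint in an exon of the gene. The median distance to the TSS was 408.7 kb, compared with 58.8 kb over all peaks. Within 100 kb of the TSS lay 73 peaks, within 10 kb 6 and within 1 kb 3. The 6 peaks within 10 kb belonged to Cdh16 (1.23 kb upstream), Cdh19 (238 bp upstream), Pcdh15 (2.70 kb from the listed TSS), Pcdh17 (561 bp upstream) and Pcdh19 (763 bp upstream and 4.50 kb into the gene). All 6 held a run. The side on which named peaks lay differed between genes. All 25 named peaks of Pcdh17 and 40 of the 42 peaks of Cdh6 were upstream, 37 of the 46 peaks of Cdh11 were downstream, and all 10 peaks of Pcdh7 and all 5 of Cdh4 lay within the gene. The peaks of Pcdh9 were on all sides, with 29 upstream, 25 within and 18 downstream of the gene. For some genes the missing side was one where peaks carried another name. Among all peaks closer to Pcdh17 than to another protein-coding gene, 25 were upstream and 23 downstream of it, the latter all named for noncoding genes. For Pcdh7 there were 27 upstream, 10 within and 27 downstream.

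**Figure D2:**
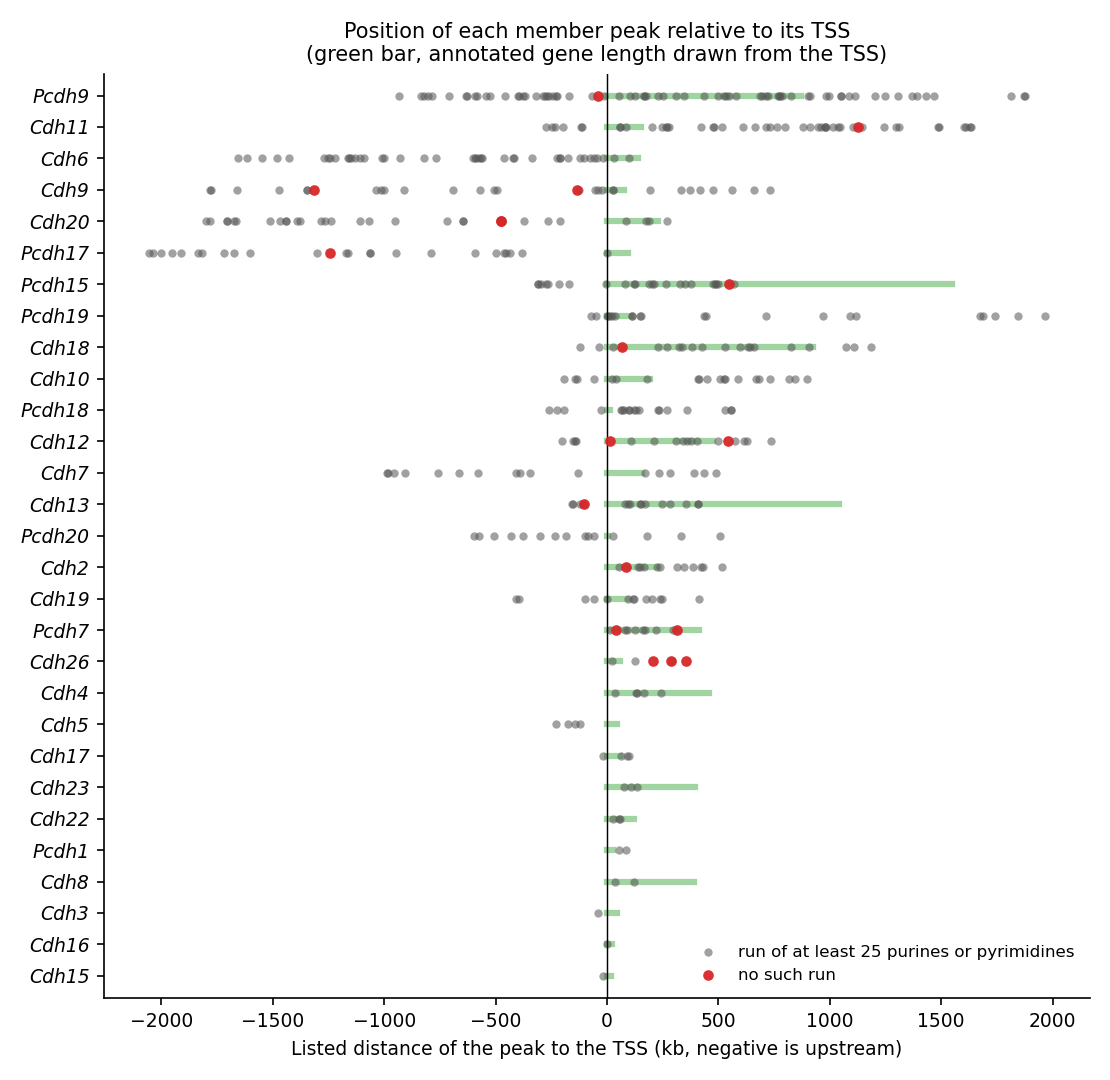
Listed distance of each of the 484 peaks to the TSS of its gene in kb (x axis, negative values upstream), 1 line per gene, in grey where the peak had a purine or pyrimidine run of 25 bases or longer and in red for the 18 peaks that did not; green bars show the annotated gene length, which for Pcdh15 and Cdh18 starts 722525 and 487441 bp from the listed TSS. Runs were sought within 100 bp of the peak midpoint. Peaks were spread over as much as 2056 kb from the TSS, and 3 of the 6 peaks of Cdh26 had no run there.

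To ask whether gene length and flanking desert account for these counts, each gene was given a territory, all sequenced bases closer to its TSS than to that of another protein-coding gene. The 32 territories together measured 40.1 Mb, or 1.57% of the genome, although the genes make up 0.144% of protein-coding genes. They ranged from 0.0199 Mb for Cdh16 to 3.91 Mb for Pcdh7, and 14 were over 1 Mb. Named peaks numbered 12.1 per Mb of member territory (exact 95% Poisson interval 11.0 to 13.2, which covers counting error only), against 18.9 per Mb in the genome as a whole. The genome value counts every peak, also those named for noncoding genes. Named peaks alone numbered 15.2 per Mb of territory over all protein-coding genes (interval 15.02 to 15.3). On these like terms the difference was smaller, but per base of territory the set still had fewer named peaks. Wide territories in general had fewer: the 278 protein-coding genes with a territory over 1 Mb had 11.3 named peaks per Mb (interval 11.0 to 11.6), and the 14 members among them 10.0 (interval 8.98 to 11.2). The 18 members with a smaller territory had 20.9 (interval 17.7 to 24.4). These contrasts were smaller by position alone. When every peak in a territory was counted whatever its name, the 278 genes had 17.8 per Mb and all other genes 19.2, and the 14 members had 15.8 (interval 14.5 to 17.2) against 17.4 (14.6 to 20.7) for the 18.

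In a negative binomial regression across all 22225 protein-coding genes, territory alone explained 49.5% of the deviance of the peak count, gene length alone 16.6% and both together 51.7%. With gene length alone, the 32 genes had 484 peaks where 116.2 were fitted, a ratio of 4.17, and 9 of them were above the central 95% of the fitted distribution. The share of all genes above that range was not computed. With territory and length, 584.1 peaks were fitted and the ratio was 0.829. The median ratio of observed to fitted count over the 32 genes was then 0.863. Cdh11 alone was above the fitted range, while 1.46% of all genes were above it, and Pcdh10 alone was below it, while 0.045% of all genes were. Most genes have a fitted count so low that their range starts at 0, and these cannot fall below it. Among the 278 genes with a territory over 1 Mb, 8 were below, beside 1 of the 14 members with such a territory. Across the 32 genes the count followed territory (Spearman's rho 0.688) more closely than gene length (0.485). Both values are descriptions over genes, which share 1 library and are not independent replicates. By the sums, 116.2 peaks were fitted for the 484 with gene length alone and 584.1 with territory and length. A territory includes the gene body, so it does not measure flanking desert alone. It is the bases closest to a TSS, and a peak is named for the closest TSS. Part of this difference therefore follows from the counting rule, and the sums cannot decide what accounts for the counts. With length alone 9 genes were above the fitted range and none below it, and with territory and length 1 gene was above it and 1 below. The shares of all genes outside the range are known only for the latter fit, so these counts cannot be set against each other.

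The number of long purine or pyrimidine runs was also compared with the peaks. Runs of at least 50 bases numbered 62.8 per Mb in the member territories and 69.1 per Mb in the genome. Of the 2518 runs in the member territories, 760 (30.2%, Wilson interval 28.4 to 32.005%) lay under a peak, against 30.6% of 176892 runs in the genome. The share was 30.5% (interval 28.5 to 32.7%) in the territories of the neuronal genes and 29.1% (25.7 to 32.7%) in those of the others. Among single genes, the interval excluded the genome share for Pcdh9, with 86 of 223 runs under a peak (38.6%, interval 32.4 to 45.1%), for Cdh9, with 36 of 157 (22.9%, 17.05 to 30.1%), and for Cdh26, with 5 of 40 (12.5%, 5.46 to 26.1%). With an interval for each gene, some may exclude it through counting error alone. The share of all protein-coding genes with such an interval was not computed, so these genes cannot be set apart from the rest. When the number of such runs was added to the regression, 58.9% of the deviance was explained and the slope of the territory fell from 0.845 to 0.0431. The runs were counted inside the same territory, so their number also depends on its size, and this fit cannot separate runs from territory. The members were farther from this fit, with 675.3 peaks fitted for the 484 observed (a ratio of 0.717), a median ratio of 0.757, Cdh11 above the fitted range and Cdh8 and Pcdh10 below it. The shares of all genes outside the range of this fit were not computed. For the 32 genes, the count followed the number of runs with a Spearman's rho of 0.702.

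The symbol given to a peak depended on which TSSs were considered. In the deposited list, 18.7% of all peaks were named for a noncoding RNA gene. In the territories of the 32 genes lay 646 peaks, of which 426 were named for the member, 194 (30.03%) for a noncoding gene and 26 for another protein-coding gene. Peaks of 13 members were taken in this way by noncoding genes. Another 58 peaks were named for a member although they lay outside its territory, since the closest TSS in the annotation belonged to another gene, often a predicted one. For 11 peaks of Pcdh15 that gene was Gnaz, and the list used a TSS of Pcdh15 that lies 722525 bp from the annotated one. For 1 peak of Cdh12 it was Cdh18, whose listed TSS lies 487441 bp from the annotated one.

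The shift was largest for Pcdh7, Pcdh10 and Cdh8, all of the neuronal list. Pcdh10, a delta-2 protocadherin, had no named peak but 34 peaks in its territory. Of these, 27 were named for 2610316D01Rik, a noncoding gene whose TSS is 0.138 kb from that of Pcdh10, and 7 for 1700027H10Rik, 60.9 kb away. Pcdh7 had 10 named peaks and 64 in its territory, 22 of them named for 4932441J04Rik, whose TSS is 0.162 kb from that of Pcdh7. Cdh8, a type II cadherin of neural circuits, had 2 named peaks and 34 in its territory, with the other 32 named for Gm15679, 404.6 kb away. Pcdh17 had 25 named peaks against 48 in its territory, Cdh20 30 against 46 and Cdh18 20 against 36. In the opposite direction, Cdh11 had 46 named peaks and 17 in its territory. The other 29 peaks lay closer to the predicted protein-coding genes Gm17316 and Gm8730. Cdh6, Cdh13, Cdh19, Pcdh18 and Pcdh19 were among the genes with the same count by both assignments.

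**Figure D3:**
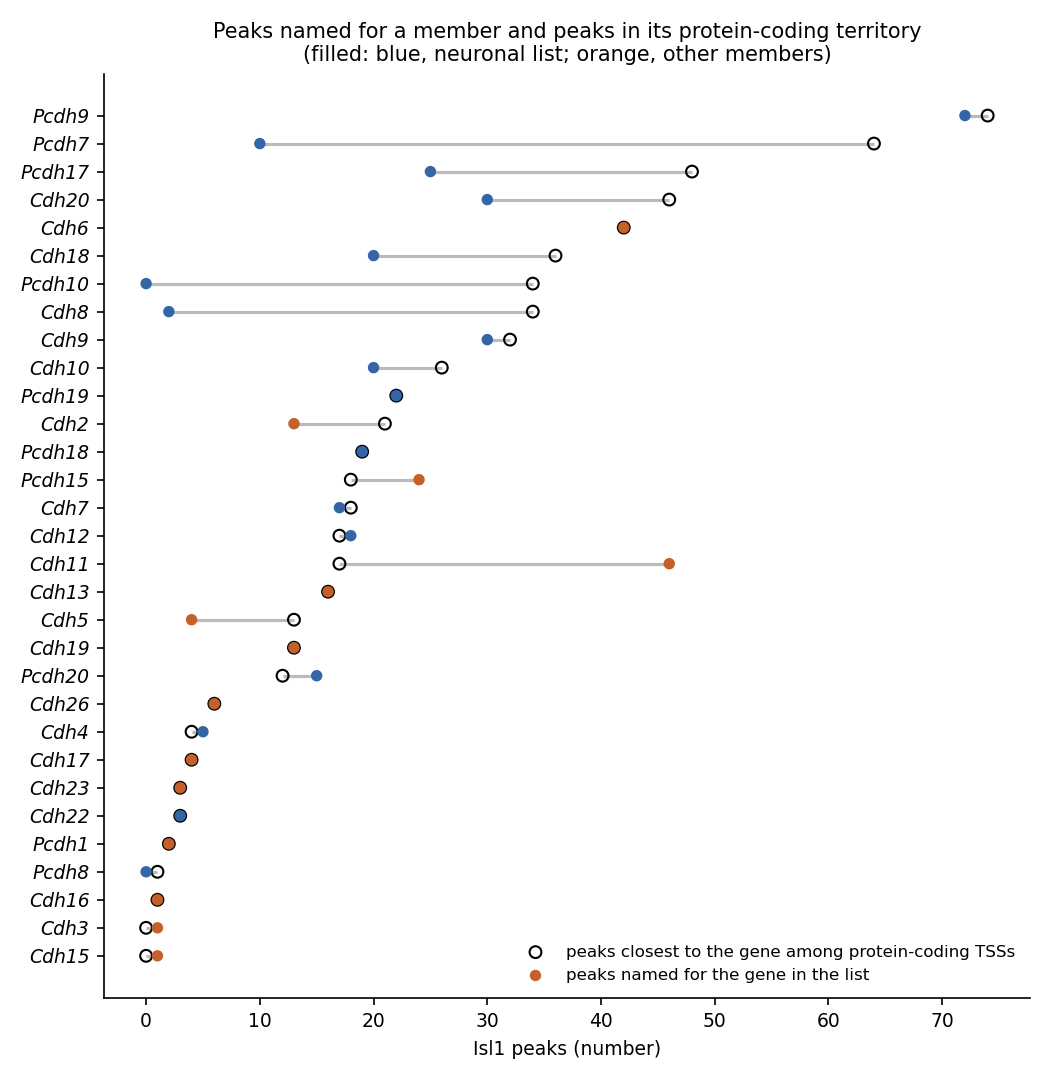
Peaks named for each gene in the list (filled points, blue for the neuronal list and orange for the other members) and peaks in its territory between protein-coding TSSs (open circles), both as numbers of Isl1 peaks, for the 31 genes with either. The lines are longest for Pcdh7 (10 and 64), Pcdh10 (0 and 34), Cdh8 (2 and 34) and, with the named count higher, Cdh11 (46 and 17).

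Counts were then made on matched terms. First, all peaks in the territories between protein-coding TSSs were counted whatever their name. The members then had 16.1 peaks per Mb (interval 14.9 to 17.4), and the regression on territory and length explained 73.9% of the deviance, with a slope of 1.05 for territory and 0.00235 for gene length. None of the 32 genes was outside the fitted range, but the share of all genes outside it was not computed. Second, named peaks were set against territories drawn between the TSSs the list itself used, inferred from its positions and distances, with annotated TSSs for coding genes that have no peak. The members had 16.8 named peaks per Mb of these (interval 15.3 to 18.4), and 67.5% of the deviance was explained. Again no member was outside the fitted range, and again the share of all genes was not computed. On these terms gene length added almost nothing beyond the territory. In large part this follows from the counting rule, because a territory is the bases closest to a TSS and a peak goes to the closest TSS. The TSSs of the list were moreover inferred from its own peaks, so a noncoding gene without a peak has no territory there. These fits therefore cannot decide by themselves what accounts for the counts.

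Some genes still differed from the genome rate of 18.9 peaks per Mb by more than counting error. With named peaks and protein-coding territories, the Poisson interval of Cdh11 was above the genome rate, as for 2.92% of all genes. The intervals of 12 members, 37.5%, were below it, against 3.58% of all genes. These 12 were Cdh2, Cdh5, Cdh7, Cdh8, Cdh9, Cdh10, Cdh18, Cdh20, Pcdh7, Pcdh10, Pcdh17 and Pcdh19. Only genes with wide territories have intervals narrow enough for such a call, and named peaks are here set against a rate that counts every peak. When all peaks in the territory were counted, Pcdh9 was above (2.38% of all genes) and Cdh2, Cdh7, Cdh9, Pcdh17 and Pcdh19 were below (0.49%). In the territories of the list, which could be drawn for 20586 protein-coding genes including all 32 members, Pcdh9 was above (2.18% of the 20586) and Cdh7, Cdh9, Pcdh17 and Pcdh19 were below (0.685%). Pcdh9 had 25.02 named peaks per Mb (interval 19.6 to 31.5) in the territories of the list, while Cdh7 had 11.1, Cdh9 11.5, Pcdh17 11.2 and Pcdh19 10.7. Pcdh19 lies on chromosome X, which had 13.0 peaks per Mb over its whole length, within the interval of Pcdh19 (6.72 to 16.2).

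**Figure D4:**
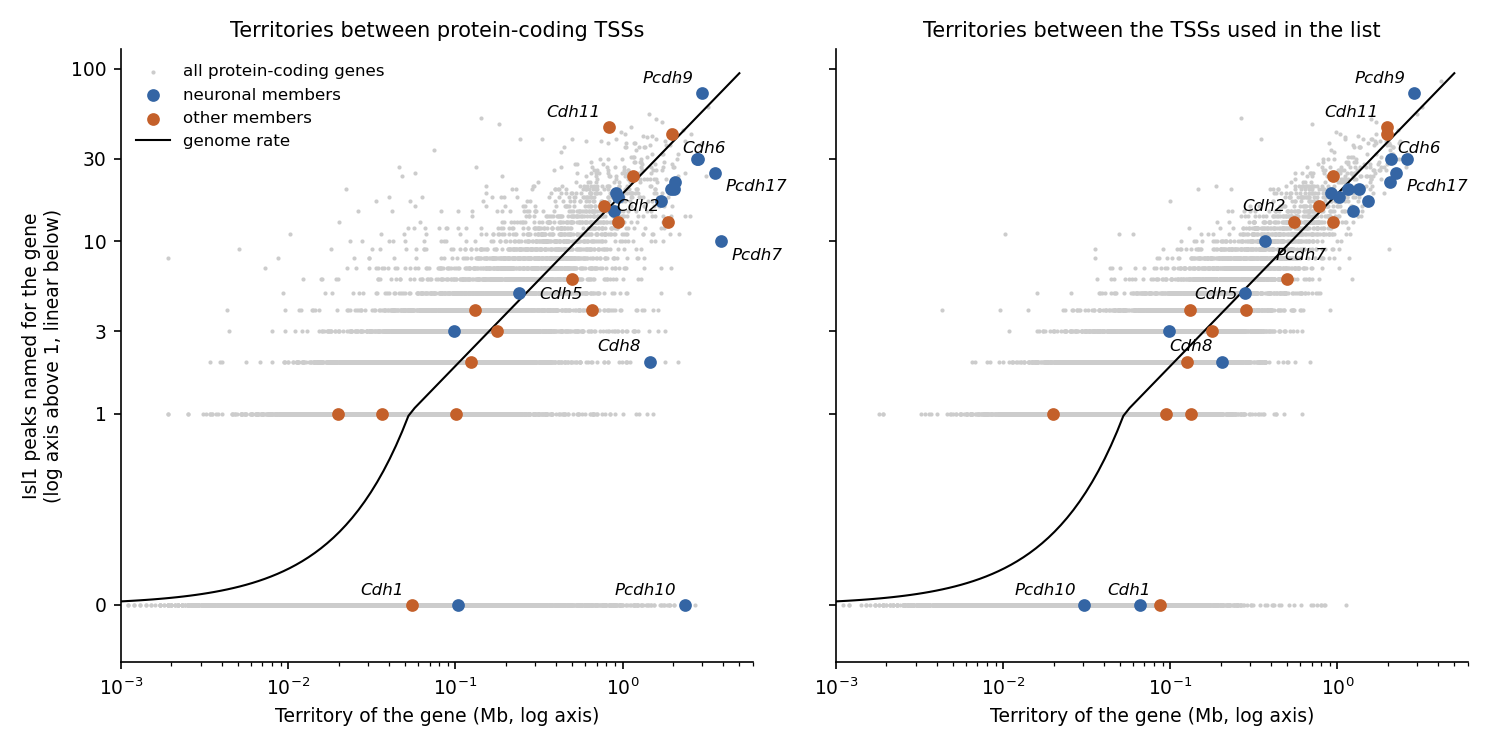
Isl1 peaks named for a gene (y axis, log scale above 1 and linear below) against its territory in Mb (log axis) for all protein-coding genes (grey), neuronal members (blue) and other members (orange), with territories between protein-coding TSSs on the left and between the TSSs of the list on the right. The black line is the genome rate of 18.9 peaks per Mb; Pcdh7, Pcdh10 and Cdh8 lie far below it on the left only.

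Of the cardiac, endothelial and epithelial cadherins, Cdh2 had named peaks within and downstream of the gene, Cdh5 had named peaks upstream, and Cdh1 had none. N-cadherin gene Cdh2 (chromosome 18, 16747386 to 16967755, minus strand, 220.4 kb) had 13 named peaks, none upstream, 5 in its introns and 8 downstream. The intronic ones were 53.9, 87.6, 141.5, 147.0 and 166.0 kb from the TSS, and the downstream ones lay from 225.8 to 518.2 kb from it. The peak at 87.6 kb held no run and contained TAAT. The territory of Cdh2 measured 1.86 Mb and held 21 peaks, of which 7 were named for Cdh2 and 14 for noncoding genes, 8 of them for 4930545E07Rik and 5 for 4921533I20Rik. These 14 all lay upstream of Cdh2, so the absence of an upstream peak holds for the names in the list and not for the territory. The other 6 named peaks of Cdh2 were closer to the predicted gene Gm7665. In the territory of the list, 0.549 Mb, Cdh2 had 23.7 peaks per Mb (interval 12.6 to 40.5), which includes the genome rate.

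Cdh5 (chromosome 8, 106625525 to 106668402, plus strand, 42.9 kb) had 4 named peaks, 123.1, 143.1, 173.6 and 229.3 kb upstream. All 4 held a run, and the one closest to the TSS is printed above. No peak was named for Cdh5 within the gene, although 1 peak lay there and was named for the noncoding gene Gm29682. Its territory of 0.652 Mb held 13 peaks, 12 upstream and 1 within the gene, with 8 of the 13 named for 4933400L20Rik. By named peaks Cdh5 had 14.1 per Mb in the territory of the list (interval 3.85 to 36.1).

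Cdh1 (chromosome 8, 109127251 to 109194146, plus strand, 66.9 kb) had neither a named peak nor a peak in its territory, which measured only 0.0549 Mb. From its territory and length, 1.16 peaks were fitted, with a range of 0 to 5, so a count of 0 was inside it. A count of 0 allows up to 67.2 peaks per Mb for a territory of this size. The closest peaks were 63.9 kb downstream, inside the Cdh1 gene but named for Tango6, and 134.4 kb upstream, named for the neighbouring Cdh3 (P-cadherin). Cdh1, Cdh2 and Cdh5 together had 17 named peaks, or 6.61 per Mb of protein-coding territory (interval 3.85 to 10.6). The neuronal genes had 10.0 (8.92 to 11.2). With every peak in these territories counted, Cdh1, Cdh2 and Cdh5 had 34, or 13.2 per Mb (9.16 to 18.5), against 15.9 (14.5 to 17.4). In the territories of the list the order was the reverse, 18.5 (10.8 to 29.6) for their 17 peaks against 15.3 (13.6 to 17.1). By each of these measures the intervals overlap.

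The neuronal list held 17 genes (Cdh4, Cdh7, Cdh8, Cdh9, Cdh10, Cdh12, Cdh18, Cdh20, Cdh22, Pcdh7, Pcdh8, Pcdh9, Pcdh10, Pcdh17, Pcdh18, Pcdh19 and Pcdh20), and 15 genes remained. The split was made by gene name and not by expression in this tissue, and it is not sharp. Cdh2, abundant in neural tissue, and Cdh6, known from neural crest, are among the others, while Pcdh8, known also from paraxial mesoderm, is in the neuronal list. The neuronal genes had more peaks per gene, with a median of 18 (range 0 to 72) against 4 (range 0 to 46), and wider territories, with a median of 1.94 Mb against 0.500 Mb. Per Mb of protein-coding territory they had fewer named peaks, 10.0 (interval 8.92 to 11.2; 308 peaks) against 18.9 (16.2 to 21.9; 176 peaks), a ratio of 0.531 (0.439 to 0.642). When all peaks in those territories were counted, the values were 15.9 (14.5 to 17.4) and 16.7 (14.2 to 19.6) and the ratio 0.952 (0.794 to 1.15). In the territories of the list they were 15.3 (13.6 to 17.1) and 20.2 (17.4 to 23.5), a ratio of 0.756 (0.626 to 0.915). Without Cdh6 and Cdh11, which hold 88 of the 176 peaks of the other genes, that ratio was 0.827 (0.650 to 1.06). Without Pcdh9 it was 0.676 (0.554 to 0.827). These intervals cover counting error only, and genes differ from each other by more: in the territories of the list, single neuronal genes ranged from 0 to 30.5 peaks per Mb with a median of 14.3, and the others from 0 to 50.2 with a median of 16.99.

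**Figure D5:**
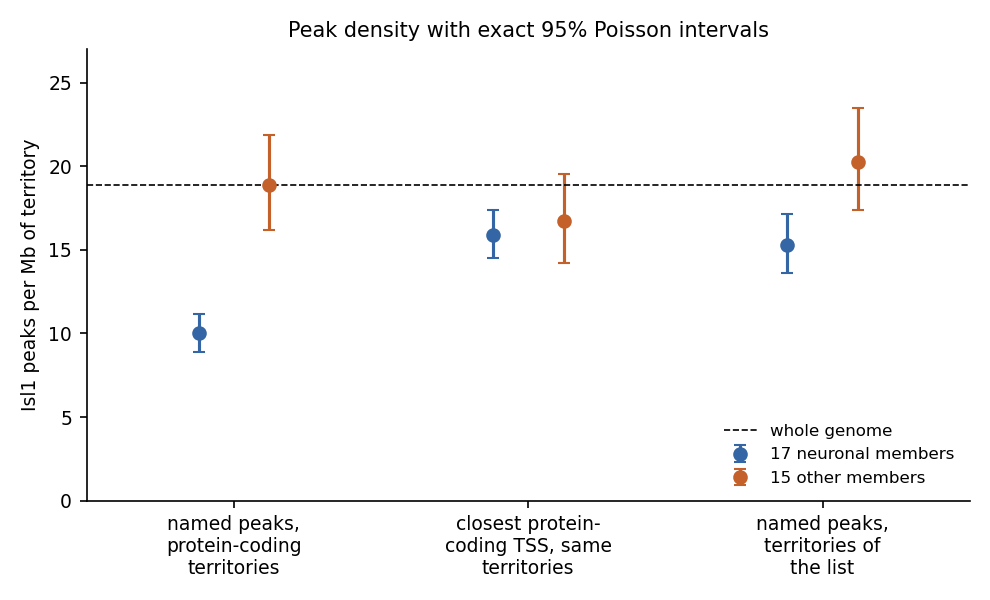
Isl1 peaks per Mb of territory (y axis from 0) for the 17 neuronal (blue) and 15 other (orange) genes, by named peaks in protein-coding territories, by all peaks in the same territories and by named peaks in the territories of the list; bars are exact 95% Poisson intervals and the dashed line is the genome rate. The values are 10.0 and 18.9 on the left, 15.9 and 16.7 in the middle and 15.3 and 20.2 on the right.

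The 5 genes with the most peaks bordered on desert, on both sides for Pcdh9 and Cdh9 and mainly on 1 side for the others. The territory reached 1.80 Mb upstream of Cdh6 and 2.498 Mb upstream of Cdh20 but 0.03497 and 0.0671 Mb downstream of them. For Cdh11 it reached 0.635 Mb downstream but 0.0404 Mb upstream. Beyond that upstream edge lay 6 named peaks of Cdh11, closer to the predicted gene Gm8730. The territory of the list for Cdh11 measured 1.97 Mb. Pcdh9 (chromosome 14, 93414731 to 94287951, 873.2 kb), a delta-1 protocadherin of neurons, had 72 peaks over 2.81 Mb with a median spacing of 28.0 kb, and 25 of them were in its introns, or 28.6 per Mb of gene body (interval 18.5 to 42.3). Cdh11 (chromosome 8, 105156895 to 105309011), a cadherin of mesenchyme and bone, had 46 peaks over 1.91 Mb, the farthest 1635 kb downstream of its TSS. Its gene body of 152.1 kb held 3. Cdh6 (chromosome 15, 12963955 to 13103394), known from kidney and neural crest, had 42 peaks over 1.75 Mb, of which 2 were in the gene. The 30 peaks of Cdh9 and the 30 of Cdh20, both type II cadherins of neurons, were more widely spaced, with medians of 60.6 and 50.5 kb between neighbours. Against territory and length, the observed count was 1.42 times the fitted one for Pcdh9, 3.52 times for Cdh11, 1.56 for Cdh6, 0.901 for Cdh9 and 0.771 for Cdh20.

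The highest ratios of observed to fitted count were those of Cdh11 (3.52; 13.1 fitted, range 0 to 42), Cdh16 (2.40; 1 peak, 0.417 fitted) and Pcdh18 (1.93; 19 peaks, 9.86 fitted). Cdh11 was above its range, but in the territories of the list its ratio was 1.11 (41.3 fitted). Cdh16, a cadherin of kidney epithelium, has a territory so small that 1 peak gives this value. Pcdh18 is a short gene of 14.02 kb in a territory of 0.917 Mb, and all 19 of its peaks were outside the gene. The lowest ratios were 0, for Cdh1, Pcdh8 and Pcdh10. For Pcdh8, known from paraxial mesoderm and synapses, 1.31 peaks were fitted with a range of 0 to 5, and 1 peak in its territory was named for the microRNA gene Mir759. For Pcdh10, 27.1 peaks were fitted with a range of 1 to 85, whereas in the territory of the list, 0.0305 Mb, 0.503 were. Just above these were Cdh8 (0.0821) and Pcdh7 (0.177), which in the territories of the list had ratios of 0.524 and 1.39.

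By class, the 12 type II cadherins had 245 named peaks, the 5 classical type I cadherins 20, the 5 other cadherins 30, the 3 delta-1 protocadherins 84, the 5 delta-2 protocadherins 66 and the other protocadherins, Pcdh15 and Pcdh20, 39. In the territories of the list, delta-1 protocadherins had 24.9 peaks per Mb (interval 19.9 to 30.8), with 72 of their 84 peaks from Pcdh9. Delta-2 protocadherins had 12.4 (9.63 to 15.8) and type II cadherins 16.1 (14.1 to 18.2). Type I cadherins had 17.5 (10.7 to 27.01), other cadherins 18.8 (12.7 to 26.8) and the other protocadherins 17.9 (12.7 to 24.5). Among the type I genes, Cdh4 (R-cadherin) had all 5 peaks within its 456.9 kb, and Cdh15 (M-cadherin of muscle) had 1 peak 18.2 kb from its TSS. Cdh23 and Pcdh15, whose proteins form the tip links of hair cells, are long genes with 9 and 30 peaks in their gene bodies, of which 3 and 24 carried their names.

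Gene bodies and flanks held peaks at similar rates. In the parts of the territories inside the gene there were 18.5 peaks per Mb (interval 15.4 to 22.0), and in the flanks 15.6 (14.3 to 17.02), with 14.8 upstream (13.2 to 16.6) and 16.9 downstream (14.7 to 19.3). In the genome as a whole, protein-coding gene bodies held 16.3 per Mb (16.03 to 16.5) and the rest 20.5 (20.3 to 20.7). The flanks of the 32 genes were thus below the genome's rate outside gene bodies by more than counting error, while the interval of their gene bodies contained the genic rate. Over the whole annotated gene, Cdh13 (T-cadherin, anchored to the membrane without a cytoplasmic domain) had 28 peaks in 1041 kb, or 26.9 per Mb (17.9 to 38.9).

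Several of the genes are neighbours. On chromosome 15, Cdh6, Cdh9, Cdh10, Cdh12 and Cdh18 lie in 10.8 Mb with 6 protein-coding TSSs in all. This region held 171 peaks, or 15.8 per Mb (13.5 to 18.3), and 125 of them (73.1%) were named for one of the 5. On chromosome 14, Pcdh8, Pcdh17, Pcdh20 and Pcdh9 shared a region of 15.2 Mb with 277 peaks, or 18.3 per Mb (16.2 to 20.5), of which 112 were named for them and 92 for noncoding genes. On chromosome 1, the region of Cdh20, Cdh7 and Cdh19 held 15.3 peaks per Mb (12.9 to 18.1). The region of Pcdh10 and Pcdh18 on chromosome 3 held 17.4 (14.4 to 20.9), with 19 peaks named for Pcdh18 and 68 for noncoding genes. The region of Cdh8, Cdh11 and Cdh5 on chromosome 8 held 23.3 (19.7 to 27.5), where the whole chromosome had 21.5.

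The 18 member peaks without a run within 100 bp of the midpoint were spread over 12 genes. Some of them held a run farther from the midpoint, since 473 of the 484 member peaks had one over the whole peak. Cdh26 had 3 of them, all downstream of the gene and 208.9 kb or more from its TSS. Cdh9, Cdh12, Cdh20 and Pcdh7 had 2 each, and Cdh2, Cdh11, Cdh13, Cdh18, Pcdh9, Pcdh15 and Pcdh17 had 1 each. The one closest to a TSS was 15.4 kb into Cdh12 and held a run elsewhere in the peak. TAAT or ATTA was present in 10 of the 18 (55.6%), compared with 38.4% of the 466 member peaks with a run and 37.3% of all 2855 peaks of the list without a run. With 18 peaks, this share is too imprecise to be set apart from the others.

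Other genes of the adhesion system, from lists that do not overlap with the 32, are set here beside the 49% of all protein-coding genes with a peak. Of the 12 catenins and their partners, 9 had a peak, for example Ctnna3 (alpha-catenin of heart and testis) with 16 and Ctnnd2 (delta-catenin of neurons) with 14. Ctnnb1 (beta-catenin) had 1 and Jup (plakoglobin) none. Of 8 giant and seven-pass cadherins found in the annotation, 5 had a peak, with 26 for Fat4, 20 for Fat3 and 13 for Fat1, and none for Dchs1, Celsr2 and Celsr3. Of 12 further members of the superfamily, 6 had a peak, and the median over them was 0.5 peaks. No gene of these 3 lists was outside the fitted range. Their median ratios of observed to fitted count were 0.789, 0.876 and 0.0657, beside 0.863 for the 32 genes and 0 for all protein-coding genes, most of which have few or no peaks.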

How the data were processed

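Per the labels, Isl1 ChIP-Seq was performed on pooled E8.25-E9 embryo tissue. The authors used Bowtie2 for mapping (build mm9), Picard 1.136 against duplicates and MACS, with a fixed p-value threshold, for peaks. Blacklisted regions were then dropped, and HOMER gave the closest RefSeq TSS. The deposited list gives position, distance to the TSS in bp, accession and symbol of each peak, with no height, score or read number. The methods name a bedtools intersection for areas common to replicates, but not whether this list is one. A second header line was skipped.

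Genes, territories and sequences were taken from GENCODE vM1 and NCBIM37, which is mm9, with pysam 0.24.0. List symbols were matched by name or synonym, and 10906 of 12972 were found among protein-coding genes. Poisson intervals and Wilson intervals (95%) used scipy 1.17.1, and the regression used statsmodels 0.14.6. The regression was tested on simulated counts. All 32 members were named; Cdh1, Cdh2, Cdh5, the 5 with most peaks and the 3 highest and 3 lowest against the fit were described in depth. Members, lists and the run definition were chosen with earlier results of these data known. Territories between the TSSs of the list and the counts without Pcdh9, Cdh6 or Cdh11 were added after seeing the data. No p-value is given, since there is 1 list. The input sample was not used.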

Additional observations from a re-analysis of the deposited data

How the results depend on the processing

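No paired analysis was possible because 1 list was analysed and no test was run; no replicate could be left out. A count or a median ratio to the fit was taken as moved past 1.5 times its value, and a density, a ratio of densities or a share when it left the 95% counting interval of its value, which is the narrower bound. By these bounds 31 of 47 recomputed values moved. The number of member peaks was 237 for peaks wider than 466 bp, 73 within 100 kb of the TSS, 6 within 10 kb and 18 without a run, and the number of members with a peak was 5 within 10 kb and 12 without a run. Peaks per Mb of member territory were 5.91, 1.82, 0.150 and 0.449 under these settings, 16.1 by the closest annotated TSS, 16.8 with the TSSs of the list and 44.0 when named peaks were set against territories between the TSSs of all annotated genes. The ratio of neuronal to other genes was 0.435 within 100 kb, 0.303 within 10 kb (6 peaks), 0.952 by the closest annotated TSS, 0.756 with the TSSs of the list, 0.905 with the TSSs of all annotated genes and 0.742 without Cdh6 and Cdh11. Cdh1, Cdh2 and Cdh5 together had 7 wide peaks, 2 within 100 kb, 0 within 10 kb, 1 without a run and 34 by the closest annotated TSS. The median ratio of observed to fitted count moved to 2.63 with gene length alone. Members above the fitted range numbered 9 with gene length alone, 0 by the closest annotated TSS, 0 with the TSSs of the list and 3 among genes with at least 1 peak. The share of all genes above the range was computed only for the fit on territory and length. The share of member peaks with a run was 93.8% for at least 40 bases and 97.7% over the whole peak. With fewer peaks the first settings count less by construction, and the assignment settings change which peaks and bases belong to a gene; no other cause was tested. The list gives no height or p-value, so a stricter threshold could not be applied. Counting error limits genes with few peaks: the interval of Cdh16 (1 peak) ran from 1.27 to 279.6 per Mb.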
